A study of Mus musculus with 16 samples.

Results

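The genes that carry a cell through the end of its cycle, from the cyclins and kinases of mitotic entry to the motors and cytokinesis proteins that split the daughter cells, were followed across 16 mouse small cell lung cancers. The set held 40 named genes of G2 phase and mitosis, chosen by function as mitotic kinases, cyclins, and spindle and cytokinesis genes, and each matched 1 of the 23224 gene rows of the deposited table of estimated counts. All 16 tumors were Trp53-/-; Rb1-/- on a mixed C57BL/6;129/Sv background. CRISPR mutated p107, the product of Rbl1, in 8 of them and p130, the product of Rbl2, in the other 8, so every tumor lacked p53 and RB and carried a mutation in 1 of the 2 related proteins. The p107 tumors came in pairs from mice sgp107_6627, sgp107_6629, sgp107_6630 and sgp107_6631. Of the p130 tumors, 3 came from mouse sgp130_6637, 3 from mouse sgp130_6638 and 2 from mouse sgp130_6697. Mouse numbers were read from the sample titles, where T1 to T5 number the tumors of a mouse. Y-linked transcripts were present in all 8 p107 tumors but in only 2 of the 8 p130 tumors, those of mouse sgp130_6697. Tumors were cut out of the lung and frozen, and their RNA could hold that of host cells.

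In cycling cells, Cdk1 with cyclins A and B starts mitosis, Aurora and Polo-like kinases build the spindle, the spindle checkpoint waits for every kinetochore to be attached, and the anaphase-promoting complex (APC/C) then destroys securin and the cyclins. In resting cells, p107 or p130 joins E2F4, DP1 and the MuvB proteins in the DREAM complex, which represses the genes of these proteins. When cells cycle, MuvB binds B-MYB (gene Mybl2) and then FOXM1 instead, and the same genes are switched on. Small cell lung cancer is a fast-dividing neuroendocrine tumor that arises with loss of RB and p53.

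Depth ran from 13300223 to 34620979 estimated counts for p107 tumors, and from 12700334 to 21254514 for p130 tumors. Levels are given in CPM, with library sizes adjusted by the TMM method, and every one of the 40 genes passed the filter on low counts, the lowest single value being 23.4 CPM. Markers of the tumor type were present in each tumor, since the 12 neuroendocrine markers summed to between 5390 and 12050 CPM in p107 tumors and to between 4515 and 13020 CPM in p130 tumors. Tumor sgp107_6631T2 stood apart in lymphocyte markers. Its 5 B and plasma cell markers with a row summed to 810 CPM and its 5 T and NK cell markers to 65.1 CPM, against at most 29.0 and 11.99 CPM in the 15 other tumors. Of the mutated genes, Rbl2 ran from 55.4 to 128 CPM in p107 tumors and from 15.6 to 54.4 CPM in p130 tumors, with no overlap. The log2 difference, p107 minus p130, was 1.498 ± 0.27 (SE; adjusted p = 0.100, edgeR). Rbl1 ran from 64.3 to 247 CPM in p107 tumors and from 60.6 to 121 CPM in p130 tumors, a log2 difference of 0.51 ± 0.26 (SE; adjusted p = 0.464). A small insertion or deletion need not lower the RNA of a gene, so these levels do not check the p107 label.

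The G2/M genes differed far more from tumor to tumor than between genotypes. The level of the set in a tumor, taken as the mean log2(CPM + 1) over the 40 genes, ran from 6.70 to 7.58 in p107 tumors, with a mean of 7.11 ± 0.32 (SD, n = 8). In p130 tumors it ran from 6.68 to 7.89, with a mean of 7.16 ± 0.37 (SD, n = 8). The distance from the lowest to the highest tumor was 1.21 on the log2 scale, while the genotype means lay within 1 SD of each other. In bulk tumors, fewer cells in mitosis and less of these RNAs per cell cannot be told apart.

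At the top stood sgp130_6637T3, in which 30 of the 40 genes had their highest value among the 16 tumors and all 40 lay above their own median. The next in order were sgp107_6627T2 at 7.58 and sgp130_6637T2 at 7.502, each with 40 of 40 genes above the median. At the bottom stood sgp130_6638T3 at 6.68 with 37 of 40 genes below the median, and sgp107_6631T2 at 6.70 with 40 of 40 below it. The lowest p107 tumor was thus also the lymphocyte-rich one, and the part of its lymphocyte RNA in these levels was not tested. Without it the lowest p107 level was 6.75, in sgp107_6629T2. Summed over the 40 genes, the RNA of the set took 5857 CPM in sgp107_6631T2, 5866 CPM in sgp130_6638T3 and 13130 CPM in sgp130_6637T3.

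**Figure D1:**
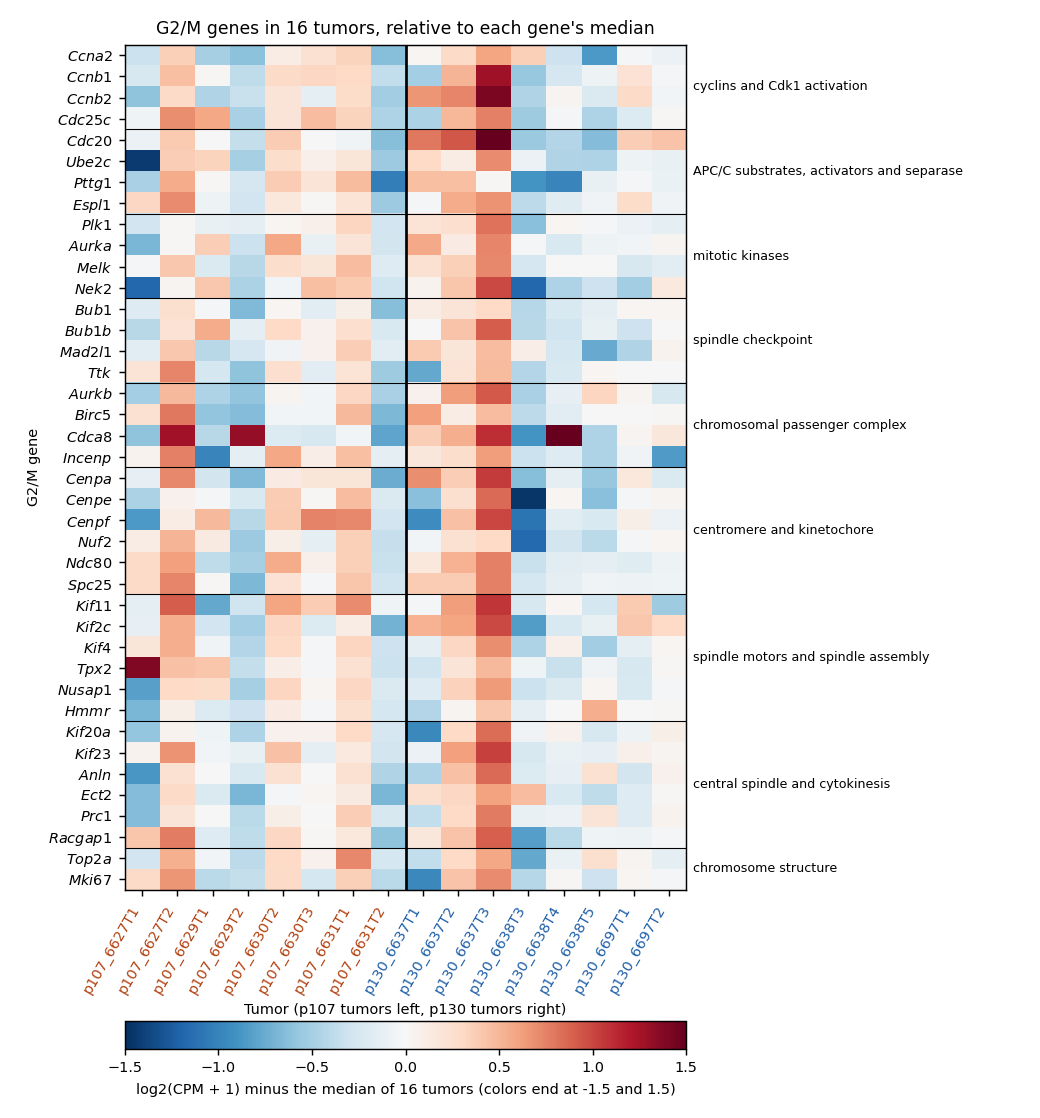
Each cell shows log2(CPM + 1) of 1 of the 40 G2/M genes in 1 tumor minus that gene's median over the 16 tumors, with rows grouped by role, p107 tumors on the left and p130 tumors on the right. Columns of 1 color run through all roles, red in sgp130_6637T3 and sgp107_6627T2 and blue in sgp107_6631T2. The column of sgp130_6638T3 is blue but for Ccna2, Ect2 and Mad2l1. Cdca8 stands out as red in the mostly blue columns of sgp107_6629T2 and sgp130_6638T4, and Tpx2 in that of sgp107_6627T1.

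Tumors of 1 mouse could be far apart. Within p107 mice, the set level differed by 0.73 between the 2 tumors of mouse sgp107_6631 and by 0.70 between those of mouse sgp107_6627, but by 0.27 in mouse sgp107_6629 and 0.17 in mouse sgp107_6630. Within p130 mice, it spread over 0.78 in mouse sgp130_6637, 0.31 in mouse sgp130_6638 and 0.001 in mouse sgp130_6697. The means of the p107 mice ran from 6.89 to 7.26, and those of the p130 mice were 7.5 for mouse sgp130_6637, 6.86 for mouse sgp130_6638 and 7.09 for mouse sgp130_6697. Mouse sgp130_6637 had the highest mean of the p130 mice for 39 of the 40 genes, the exception being Hmmr, and mouse sgp130_6638 the lowest for 32. For 17 of the 40 genes all 3 tumors of mouse sgp130_6637 exceeded the 5 other p130 tumors, an order that 3.1% of the 14857 tested genes showed. For 7 of the 40, all 3 tumors of mouse sgp130_6638 lay under the 5 others, against 4.63% of tested genes. These mice were picked out after their values were seen, so the counts are a description.

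A test of differences between mice of the same genotype, over all tested genes, called 33 genes at an adjusted p under 0.05 (0.222%; edgeR) and none of the 40. At an unadjusted p under 0.05 it had 10 of the 40 genes, or 25%, close to the 19.9% of all tested genes. The lowest p of the set belonged to Cdc20, which turns on the APC/C at anaphase. Its levels were 226, 249 and 386 CPM in mouse sgp130_6637, above every one of the 13 other tumors, and 82.4 to 95.6 CPM in mouse sgp130_6638 (edgeR F = 10.6, adjusted p = 0.0754). Genes near Cdc20 on chromosome 4 leaned the same way in these mice, as given further below, and their part was not tested. With mouse sgp130_6697 left out, Cdc20 was called (adjusted p = 0.0482). Over the other alternatives its adjusted p was 0.0712 or above. The other 9 were Ccnb2, Melk, Birc5, Incenp, Cenpa, Ndc80, Spc25, Kif2c and Racgap1, with adjusted p-values of 0.143 for Ndc80 and above.

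**Figure D2:**
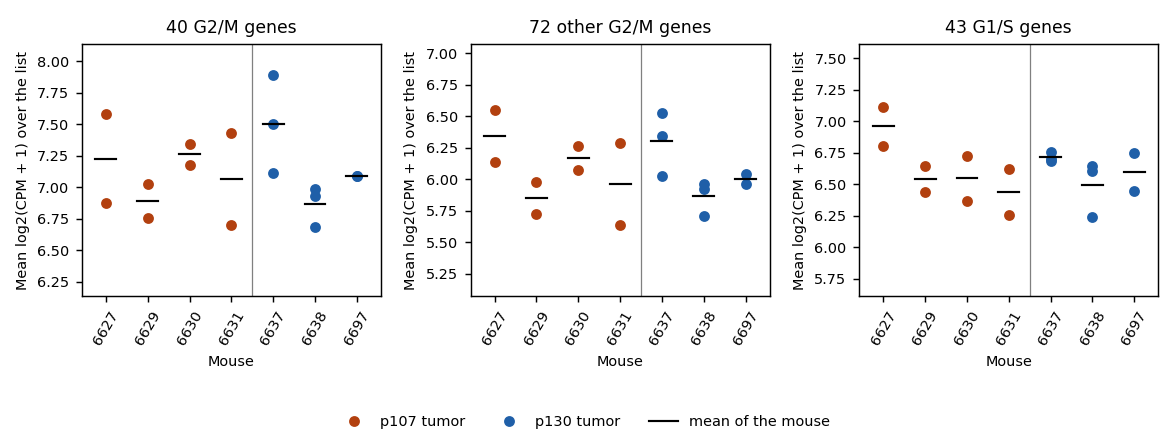
Points give the mean log2(CPM + 1) over a list in 1 tumor, by mouse, with p107 mice on the left and p130 mice on the right of each panel, and bars give the mean of a mouse. The panels show the 40 G2/M genes, 72 other G2/M genes and 43 G1/S genes on axes of equal height. In the left panel the 3 tumors of mouse sgp130_6637 lie between 7.11 and 7.89 and those of mouse sgp130_6638 between 6.68 and 6.98.

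The 40 genes varied together. Over their 780 pairs the median Pearson correlation across the 16 tumors was 0.61, against -0.00182 for pairs of all tested genes, and 99.1% of the pairs were above 0. After the genotype mean was subtracted the median was 0.63, and after the mouse mean was subtracted it was 0.67, so tumors of 1 mouse also differed along this line. These are descriptions over 16 tumors that share mice and a scaling to library size. The 72 other G2/M genes had a median of 0.51, the 43 G1/S genes 0.39, the 12 neuroendocrine markers 0.09 and the 6 endothelial markers, over 15 pairs, 0.64. With the genotype mean subtracted, Aurkb, the kinase that corrects faulty spindle attachments, was most like the rest, with a mean correlation of 0.72 to the 39 others. The closest pair was Anln and Prc1, which act at the cleavage furrow and the central spindle, at 0.96. Tpx2 and Cdca8 were least like the rest, with mean correlations of 0.27 and 0.30.

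Promoter sequence is shown because MuvB proteins reach the G2/M genes through the cell cycle genes homology region (CHR), to which the MuvB subunit LIN54 binds, and because CCAAT boxes, bound by NF-Y, often lie upstream of it. RefSeq promoters on build GRCm38.p6 matched 34 of the 40 genes, with 36 start sites. In the 250 bases before the start, the letters TTTGAA on either strand, or TTTAAA, which reads alike on both, occurred in 16 of 36 promoters (44.4%), against 25.2% of all 32851 promoters. On either strand CCAAT occurred in 27 of 36 (75%), against 33.8% of all. A CCAAT box upstream of a CHR, without overlap, was held by 9 of 36 (25%), against 4.58% of all. A match of letters is not a shown binding site, and members without one have no such letters in this window only.

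The 6 promoters below are those with both elements in that order whose genes had the smallest p between mice. Each is 200 bases ending at the base before the annotated start, read in the direction of the gene, with the CHR and CCAAT letters in capitals. In Cdc20, Cenpa, Espl1 and Kif11 the CHR begins within 27 bases of the start, in Ccnb1 at 42 bases, and in Mki67 the nearer of 2 begins at 98 bases.
Cdc20 (chr4:118437344-118437543, minus strand): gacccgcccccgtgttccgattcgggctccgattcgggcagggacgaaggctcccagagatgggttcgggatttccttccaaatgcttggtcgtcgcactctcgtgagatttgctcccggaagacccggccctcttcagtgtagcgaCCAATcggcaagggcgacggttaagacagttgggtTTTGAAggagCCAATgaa
Cenpa (chr5:30666686-30666885, plus strand): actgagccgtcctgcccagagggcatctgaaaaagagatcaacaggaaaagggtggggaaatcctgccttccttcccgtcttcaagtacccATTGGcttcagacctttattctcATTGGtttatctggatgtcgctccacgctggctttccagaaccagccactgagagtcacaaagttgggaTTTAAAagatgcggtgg
Espl1 (chr15:102296093-102296292, plus strand): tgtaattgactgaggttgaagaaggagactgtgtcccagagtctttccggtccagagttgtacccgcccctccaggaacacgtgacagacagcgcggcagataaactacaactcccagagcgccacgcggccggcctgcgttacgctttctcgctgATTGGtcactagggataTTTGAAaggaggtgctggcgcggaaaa
Kif11 (chr19:37376182-37376381, plus strand): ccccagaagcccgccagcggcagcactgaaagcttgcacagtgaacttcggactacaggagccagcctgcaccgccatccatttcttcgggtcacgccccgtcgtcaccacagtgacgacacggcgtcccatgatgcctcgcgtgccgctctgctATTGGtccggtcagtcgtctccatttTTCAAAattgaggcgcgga
Ccnb1 (chr13:100786487-100786686, minus strand): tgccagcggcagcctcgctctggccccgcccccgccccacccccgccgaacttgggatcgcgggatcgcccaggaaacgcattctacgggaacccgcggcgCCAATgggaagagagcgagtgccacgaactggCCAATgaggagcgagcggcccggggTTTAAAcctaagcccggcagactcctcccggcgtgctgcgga
Mki67 (chr7:135716380-135716579, minus strand): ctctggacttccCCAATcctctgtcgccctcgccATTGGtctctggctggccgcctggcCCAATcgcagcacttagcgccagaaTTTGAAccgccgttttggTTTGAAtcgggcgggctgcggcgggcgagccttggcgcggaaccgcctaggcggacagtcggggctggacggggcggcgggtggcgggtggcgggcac

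Between the genotypes, no G2/M gene was called. The test of p107 against p130 tumors called 4 of 14857 genes at an adjusted p under 0.05 (0.0269%; edgeR), and 0 of the 40. At an unadjusted p under 0.05 it had 1 of the 40, Ccnb2, or 2.5%, against 11.8% of all tested genes. The lowest adjusted p in the set was 0.396. The log2 fold changes of p107 over p130 tumors ran from -0.54 for Ccnb2 to 0.35 for Tpx2, with standard errors of 0.14 to 0.40. Their median was -0.03, against 0.00 for all tested genes. Of the 40, 25 were below 0 (62.5%, against 50.0% of all tested genes), and 15 were above.

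The edgeR intervals treat the 16 tumors as independent and do not allow for tumors that share a mouse, so they may be too narrow. The 95% interval of the log2 fold change lay within -1 and 1 for 37 of the 40 genes (92.5%), against 71.0% of all tested genes, and reached beyond -1 for Ccnb2, Cdc20 and Cdca8. The tested genes were not matched to the 40 for expression level, which bears on interval width, so these shares are only a description. Across the set the intervals ran from -1.12 to 0.82. The groups overlapped for all 40 genes, but the share of all tested genes that did so was not counted, so this is only a description. Which mice were in the comparison set the sign of the median: it was 0.20 without mouse sgp130_6637, with 31 of 40 genes above 0, and -0.22 without mouse sgp130_6638, with 4 of 40 above 0. All 8 p107 tumors but only 2 p130 tumors had Y-linked transcripts, so sex went largely with genotype and the parts of the 2 cannot be told apart. In these 10 tumors the median was 0.06, with 29 above 0, but both p130 tumors came from mouse sgp130_6697, so that arm is 1 animal. No gene of the set was called in any of these. The 6 endothelial markers summed to between 107.5 and 197.5 CPM in p107 tumors and to between 57.7 and 116 CPM in p130 tumors, with none of the 6 at 0 in all tumors, and their part in the comparison was not tested.

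**Figure D3:**
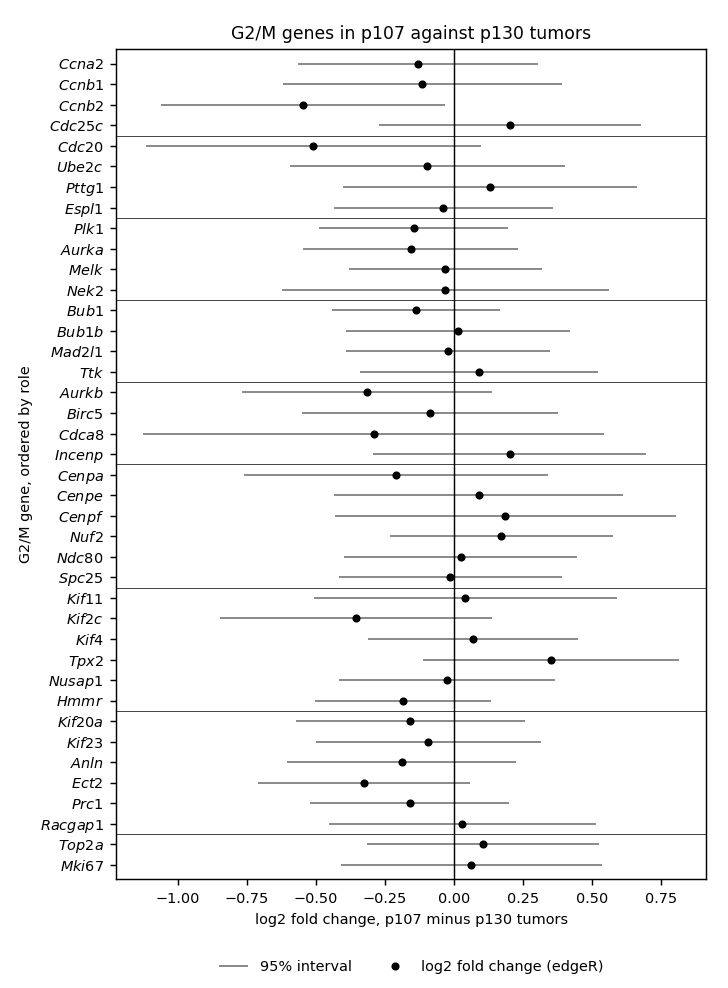
Points are edgeR log2 fold changes of p107 over p130 tumors for the 40 G2/M genes in order of role, and lines are 95% intervals over tumors, which do not allow for shared mice. All intervals cross 0 except that of Ccnb2, whose upper end is at -0.03, and 37 of 40 stay within -1 and 1.

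Among the cyclins and the phosphatase that activates Cdk1, the genotypes overlapped in each gene. Ccnb2, a cyclin of mitotic entry, lay at 64.2, 82.9 and 119 CPM in p107 tumors (lowest, median and highest of 8) and at 71.2, 110.0 and 261 CPM in p130 tumors. The 3 tumors of mouse sgp130_6637, at 155, 163 and 261 CPM, were above all 13 others. The log2 fold change was -0.54 ± 0.24 (SE, edgeR adjusted p = 0.396), and it was -0.06 without mouse sgp130_6637. An exact two-sided permutation test over the tumors gave p = 0.0833 and one over the 7 mice p = 0.171, where the smallest possible p is 0.0286. Cdc25c, the phosphatase that removes inhibitory phosphates from Cdk1, lay at 30.7, 52.3 and 70.9 CPM in p107 tumors and at 29.6, 40.05 and 73.5 CPM in p130 tumors, with a log2 fold change of 0.20 ± 0.23 (SE). Its highest tumors were sgp107_6627T2 and sgp130_6637T3. The main mitotic cyclin Ccnb1 lay between 137 and 246 CPM in p107 tumors, and in p130 tumors it reached 432 CPM in sgp130_6637T3 and lay between 120 and 254 CPM in the 7 others. Ccna2, the cyclin of S phase and G2, ran from 226 to 451 CPM in p107 tumors and from 193 to 530 CPM in p130 tumors.

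In the APC/C group, Cdc20 lay at 83.4, 128 and 171 CPM in p107 tumors and at 82.4, 172 and 386 CPM in p130 tumors. The p130 tumors thus held both the lowest and the highest value, in mice sgp130_6638 and sgp130_6637. The log2 fold change was -0.51 ± 0.29 (SE, edgeR adjusted p = 0.508), and its sign turned without mouse sgp130_6637, to 0.09. Pttg1, or securin, which holds separase inactive until anaphase, lay at 23.4, 52.9 and 72.6 CPM in p107 tumors and at 24.1, 47.1 and 67.7 CPM in p130 tumors, with a log2 fold change of 0.13 ± 0.25 (SE) that turned to -0.13 without mouse sgp130_6638. Espl1, separase itself, ran from 28.0 to 67.9 CPM in p107 tumors and from 31.2 to 66.1 CPM in p130 tumors. Ube2c, the APC/C's ubiquitin-conjugating enzyme, had its lowest value of 52.1 CPM in sgp107_6627T1 and ran from 97.2 to 185 CPM in the 7 other p107 tumors and from 103 to 234 CPM in p130 tumors.

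The mitotic kinases were as close. Plk1, which drives centrosome maturation and mitotic exit, lay at 66.4, 78.8 and 102 CPM in p107 tumors and at 52.7, 82.0 and 144 CPM in p130 tumors. Aurka, the kinase of the spindle poles, lay at 43.6, 68.3 and 106 CPM in p107 tumors and at 60.2, 71.3 and 118 CPM in p130 tumors. The p130 tumor sgp130_6637T3 was highest for both. Their log2 fold changes were -0.15 ± 0.16 and -0.16 ± 0.18 (SE), and both signs turned without mouse sgp130_6637, to 0.12 and 0.09. Melk, a kinase of dividing cells, lay at 52.9, 75.1 and 98.5 CPM in p107 tumors and at 59.5, 71.0 and 118 CPM in p130 tumors. It was the kinase with the lowest p between mice (edgeR adjusted p = 0.226). Nek2, which helps centrosomes part, was lowest in sgp107_6627T1 and sgp130_6638T3, at 76.0 CPM in each, and highest in sgp130_6637T3, at 345 CPM.

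The spindle checkpoint genes had narrow ranges, from 1.96-fold to 2.88-fold over the 16 tumors. Bub1, a checkpoint kinase at the kinetochore, had the narrowest range of the 40 genes, and the median over the set was also 2.88-fold. It lay at 47.4, 70.4 and 89.4 CPM in p107 tumors and at 55.9, 77.0 and 92.6 CPM in p130 tumors, with a log2 fold change of -0.14 ± 0.14 (SE). Ttk, the kinase Mps1 that starts checkpoint signalling, lay at 46.4, 72.9 and 119 CPM in p107 tumors and at 41.4, 71.2 and 99.2 CPM in p130 tumors. The tumors sgp107_6627T2 and sgp130_6637T3 were its highest, and its log2 fold change was 0.09 ± 0.20 (SE). Mad2l1, the checkpoint protein that binds Cdc20, lay at 97.6, 120.5 and 173 CPM in p107 tumors and at 76.7, 138 and 180 CPM in p130 tumors. Bub1b, which encodes BubR1 of the same inhibitory complex, ran from 100.6 to 199 CPM in p107 tumors and from 100.7 to 254 CPM in p130 tumors.

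The chromosomal passenger complex, in which Incenp, survivin (Birc5) and borealin (Cdca8) hold Aurora B at the centromere, included the most variable gene of the set. Aurkb lay at 56.1, 72.01 and 119.9 CPM in p107 tumors and at 60.7, 88.1 and 162 CPM in p130 tumors, with a log2 fold change of -0.31 ± 0.21 (SE). Incenp lay at 60.2, 128 and 205 CPM in p107 tumors and at 66.6, 111 and 187 CPM in p130 tumors, with a log2 fold change of 0.20 ± 0.23 (SE). Its lowest tumors were sgp107_6629T1 and sgp130_6697T2. Birc5 lay at 38.96, 61.2 and 110.0 CPM in p107 tumors and at 47.8, 63.3 and 97.2 CPM in p130 tumors. Cdca8 spanned 6.34-fold, the most of the 40 genes: it reached 267 and 256 CPM in sgp107_6629T2 and sgp107_6627T2, against 61.2 to 104 CPM in the 6 other p107 tumors, and 359 CPM in sgp130_6638T4, against 56.6 to 230 CPM in the 7 other p130 tumors. In sgp107_6629T2 its partner Aurkb was at its p107 minimum.

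At the centromere and kinetochore, Cenpa, the histone that marks centromeres, lay at 40.3, 68.3 and 113 CPM in p107 tumors and at 43.4, 69.0 and 142 CPM in p130 tumors. Its log2 fold change of -0.21 ± 0.26 (SE) turned to 0.26 without mouse sgp130_6637. Nuf2, of the microtubule-binding Ndc80 complex, lay at 64.9, 102 and 136 CPM in p107 tumors and at 41.9, 92.8 and 117 CPM in p130 tumors, with a log2 fold change of 0.17 ± 0.19 (SE). Its partner Ndc80 lay at 93.8, 150.2 and 204 CPM in p107 tumors and at 105, 123 and 225 CPM in p130 tumors, and was second to Cdc20 in the test between mice (edgeR F = 5.06, adjusted p = 0.143). The groups overlapped for each. Spc25, of the same complex, correlated with Ndc80 at 0.91 after the genotype mean was subtracted. Cenpe, a kinetochore motor, had its minimum of 50.3 CPM in sgp130_6638T3, and Cenpf, a kinetochore protein of G2, its minimum of 117 CPM in the same tumor.

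Of the spindle motors and spindle assembly factors, Tpx2, the activator of Aurora A on microtubules, lay at 187, 271 and 632 CPM in p107 tumors and at 190.3, 231 and 338 CPM in p130 tumors. The 632 CPM was that of sgp107_6627T1, a tumor in which 28 of the 40 genes lay below their median. The 7 other p107 tumors ran from 187 to 327 CPM. The log2 fold change was 0.35 ± 0.22 (SE, edgeR adjusted p = 0.547), and without mouse sgp107_6627 it was 0.04. Kif2c, the motor that takes microtubules apart at centromeres, lay at 46.9, 69.1 and 114 CPM in p107 tumors and at 43.03, 99.2 and 155 CPM in p130 tumors, with a log2 fold change of -0.35 ± 0.23 (SE). Without mouse sgp130_6637 it was -0.01. The motor Kif11, which pushes the spindle poles apart, ran from 147 to 470 CPM in p107 tumors and from 172 to 524 CPM in p130 tumors. Kif4, Hmmr and Nusap1, a motor and microtubule binders of the spindle, spanned 2.34-fold, 2.36-fold and 2.77-fold over the tumors.

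In the central spindle and cytokinesis group, Ect2, the exchange factor that activates RhoA for the contractile ring, lay at 153, 229 and 303 CPM in p107 tumors and at 190.5, 272 and 377 CPM in p130 tumors. Its log2 fold change was -0.32 ± 0.18 (SE, edgeR adjusted p = 0.506), and over the alternatives that leave out a mouse it stayed between -0.41 and -0.14. Exact permutation over the mice gave p = 0.143. Anln, the ring's scaffold anillin, lay at 109, 201 and 236 CPM in p107 tumors and at 145, 198 and 362 CPM in p130 tumors, with a log2 fold change of -0.19 ± 0.20 (SE). The lowest value was in sgp107_6627T1 and the highest in sgp130_6637T3. Racgap1, the partner of Kif23 in centralspindlin, lay at 299.5, 483 and 775 CPM in p107 tumors and at 255, 442 and 842 CPM in p130 tumors, and had the lowest p between mice of this group (edgeR adjusted p = 0.161). Kif20a, Kif23 and Prc1, of the spindle midzone, each had their highest value in sgp130_6637T3, of 235, 248 and 590 CPM.

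Of the genes for chromosome structure, Top2a, the topoisomerase that untangles sister chromatids, lay at 612, 815 and 1325 CPM in p107 tumors and at 471, 790.5 and 1207 CPM in p130 tumors. Mki67, which encodes the proliferation marker Ki-67 at the chromosome surface, lay at 919, 1245 and 1925 CPM in p107 tumors and at 622, 1214 and 1991 CPM in p130 tumors. The groups overlapped in both genes, with log2 fold changes of 0.11 ± 0.20 and 0.06 ± 0.22 (SE). For Mki67, mouse sgp130_6637 held both the lowest p130 tumor, sgp130_6637T1, and the highest, sgp130_6637T3. In sgp130_6637T1 the cyclin Ccnb2 and Cdc20 were at 155 and 226 CPM, above all tumors of the other mice. In the same tumor Mki67, Ttk, Kif20a, Anln, Prc1 and Hmmr were at their p130 minimum.

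Of a list of 75 further G2/M genes, 72 had a row, all were tested, and none was called between genotypes by edgeR. At an unadjusted p under 0.05 there were 2 (2.78%, against 11.8% of all tested genes). Their log2 fold changes were above 0 in 42 and below 0 in 30, with a median of 0.03, while 50.0% of all tested genes were below 0. The smallest p-values were those of Psrc1 and Shcbp1, at log2 fold changes of 0.55 ± 0.21 and -0.58 ± 0.26 (SE, edgeR adjusted p = 0.310 and 0.403), then of the spindle protein Tacc3 at -0.32 ± 0.16 (adjusted p = 0.449). Cdk1, the mitotic kinase itself, lay at 143, 197.5 and 324 CPM in p107 tumors and at 154, 210.0 and 397 CPM in p130 tumors, highest in sgp107_6627T2 and sgp130_6637T3. The test between mice called none of the 72 and had 21 at an unadjusted p under 0.05 (29.2%, against 19.9% of all tested genes). Pbk and Dlgap5 were among them at adjusted p-values of 0.0754 and 0.110 (edgeR), both named after their values were seen. The level of this list was also highest in sgp107_6627T2 and sgp130_6637T3, at 6.55 and 6.53.

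None of the 16 genes for regulators of the set was called between genotypes by edgeR. At an unadjusted p under 0.05 there were 2 (12.5%, against 11.8% of all tested genes), Rbl2 above and Rbbp4. Rbbp4, a histone-binding subunit of MuvB, lay at 451, 531 and 657 CPM in p107 tumors and at 429, 783 and 1140 CPM in p130 tumors, with a log2 fold change of -0.53 ± 0.17 (SE, adjusted p = 0.266). It lies on chromosome 4, whose tested genes deviated from their own medians by a median of -0.13 to -0.01 in p107 tumors. In p130 tumors that median ran from -0.07 to 0.30, and its part in Rbbp4 was not tested. The activators were close: Mybl2 lay at 31.6, 55.1 and 109 CPM in p107 tumors and at 28.9, 49.3 and 89.2 CPM in p130 tumors, and Foxm1 at 81.6, 131 and 215 CPM in p107 tumors and at 72.8, 101.5 and 189 CPM in p130 tumors. Their log2 fold changes were 0.23 ± 0.24 and 0.24 ± 0.25 (SE). Of the 43 G1/S genes, none was called and 3 had an unadjusted p under 0.05 (6.98%, against 11.8% of all tested genes). Of them, 29 were above 0 and 14 below, with a median of 0.07, while 50.0% of all tested genes were below 0. Their level ran from 6.26 to 7.12 in p107 tumors and from 6.24 to 6.76 in p130 tumors. In sgp130_6637T3, the top tumor for the mitotic genes, it was 6.68, while sgp107_6627T2 was highest for G1/S genes and near the top for mitotic ones.

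The exceptions Cdca8 and Tpx2 were looked at along the chromosome, a step chosen after their values were seen. For each gene and tumor, the deviation from the gene's median over the 16 tumors was set beside the median deviation of up to 20 tested neighbours, 10 on each side in RefSeq gene order. In 22 of the 640 pairs of a G2/M gene and a tumor (3.44%), the neighbours' median was beyond 0.5 in size on the log2 scale, 10 times upward and 12 times downward, against 3.24% of pairs over all placed genes. In all 22 the G2/M gene, relative to the tumor's median over the set, was on the side of its neighbours. Over all placed genes the share was 85.2%, but there relative to the tumor's median over all placed genes, so the shares have unlike references. The 22 include the peaks of Cdca8 and Tpx2 that prompted this step. These 22 pairs fell on 16 genes and 9 tumors, and not all are independent, as Cdc25c and Kif20a share neighbours.

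Cdca8 on chromosome 4 shared its peaks with its surroundings. Its deviation was 1.32 in sgp107_6629T2, with a neighbours' median of 1.03 and 19 of 20 neighbours above 0. In sgp107_6627T2 it was 1.26 with 0.57 and 14 of 20, and in sgp130_6638T4 1.75 with 1.47 and 18 of 20. The raised stretches were traced with a window of 11 tested genes, so their ends are approximate. They ran over 31 tested genes in sgp107_6629T2, from Rlf to Meaf6, with 29 above 0, though Rlf itself was at -0.20. In sgp107_6627T2 they ran over 29, from Cap1 to Meaf6, with 25 above 0. In sgp130_6638T4 they ran over 30, from Ppt1 to Meaf6, all above 0. Mycl1, the gene of L-MYC, which RefSeq lists as Mycl between Mfsd2a and Trit1 and so inside all 3 stretches, was at 426, 513 and 769 CPM in these tumors. Mycl1 was at 57.9 to 118 CPM in the 6 other p107 tumors, and in the 7 other p130 tumors at 594 CPM in sgp130_6697T1, where Cdca8 was at 109 CPM, and at 81.6 to 234 CPM in the rest. In sgp130_6697T1 the flanking genes Mfsd2a and Trit1 were raised too, with deviations of 2.59 and 0.94, while that of Cdca8 was 0.04. How far that stretch ran was not measured. The nearby gene Yrdc was at 155, 115 and 268 CPM in the 3 tumors and at 25.7 to 123 CPM in the others.

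Tpx2 on chromosome 2 did so with a neighbours' median beyond 0.5 in 1 tumor, sgp107_6627T1. Short of that mark, in sgp107_6629T1, Tpx2 deviated by 0.42, with a neighbours' median of 0.38 and 18 of 20 above 0. In sgp107_6627T1 the deviation of Tpx2 was 1.39, with a neighbours' median of 1.05 and 17 of 20 neighbours above 0. The raised stretch there, traced with the same window, covered 87 tested genes, of which 73 were above 0. Among the nearby genes, Pdrg1 was at 97.6 CPM in that tumor and at 23.3 to 46.2 CPM in the 15 others, Xkr7 at 50.4 CPM against 7.87 to 17.8 CPM, and Dusp15 at 89.5 CPM against at most 1.46 CPM. Ube2c lies on the same chromosome and was low in the same tumor, as were its neighbours, with deviations of -1.44 and a median of -0.58. The number of DNA copies was not measured, and its part in these values was not tested.

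**Figure D4:**
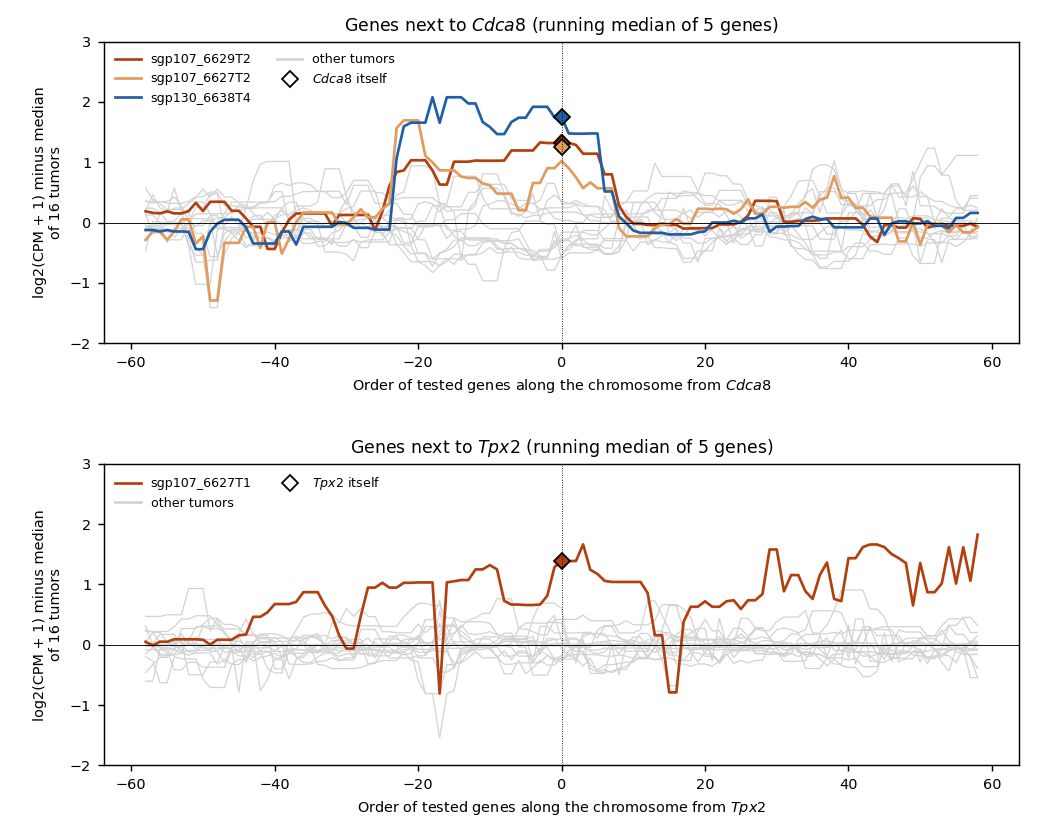
Lines show log2(CPM + 1) minus each gene's median over the 16 tumors, smoothed as a running median along the order of tested genes, around Cdca8 (top) and Tpx2 (bottom). Named tumors are colored, the others are gray, and diamonds mark Cdca8 and Tpx2 themselves. The 3 colored tumors are raised in the stretch that holds Cdca8 and fall to the gray lines past Meaf6, while sgp107_6627T1 stays raised over most of the Tpx2 panel.

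The other pairs traced whole chromosomes in part. On chromosome 19, Incenp and Kif11 had deviations of -0.995 and -0.76 in sgp107_6629T1 and of -0.85 and -0.53 in sgp130_6697T2, where the median over the tested genes of that chromosome was -0.56 and -0.59. In sgp130_6638T3, Cenpf and Nek2 on chromosome 1 deviated by -1.10 and -1.18, with a chromosome median of -0.60, and Cenpe on chromosome 3 by -1.46, with a chromosome median of -0.50. In that tumor Ccna2 and Ect2, also on chromosome 3, deviated by 0.36 and 0.46, as did their own neighbours with medians of 0.54 and 0.53. Aurkb and Top2a on chromosome 11 deviated by 0.32 and 0.24 in sgp130_6638T5, where that chromosome's median was 0.52. The low values of Ccnb1, Cdc25c and Kif20a in sgp130_6637T1 came with neighbours' medians of -0.60, -0.91 and -0.91. Cdc25c and Kif20a, both on chromosome 18, share neighbours, so they are not separate cases. Short of 0.5, the neighbours' medians around Cdc20 on chromosome 4 were 0.15, 0.26 and 0.39 in mouse sgp130_6637 and 0.21 and 0.30 in mouse sgp130_6697. In mouse sgp130_6638 they were -0.15, -0.11 and -0.04. For Kif2c on the same chromosome they were 0.32, 0.28 and 0.26, then 0.29 and 0.25, then -0.19, -0.13 and -0.03. Cdc20 itself deviated by 0.79, 0.93 and 1.56 in mouse sgp130_6637, and the neighbours' part was not tested. Gene order stands for position here, as the counts were made on build mm9 and the order is that of another build.

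**Figure D5:**
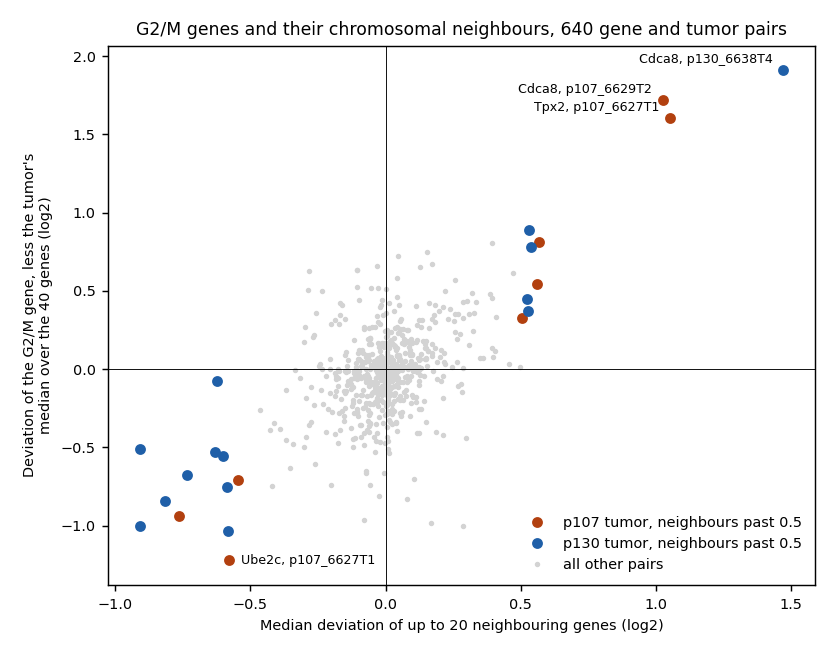
Each point is 1 of 640 pairs of a G2/M gene and a tumor, with the median log2 deviation of its chromosomal neighbours on the horizontal axis and its own deviation, less the tumor's median over the 40 genes, on the vertical axis. The 22 colored pairs, p107 in orange and p130 in blue, have a neighbours' median beyond 0.5 in size and all lie in the upper right or lower left.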

How the data were processed

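RNA of 16 tumors, 8 of p107 and 8 of p130, was sequenced after mRNA library preparation with a KAPA kit, per the labels' protocols. The authors deposited estimated counts for 23224 gene rows, not normalized. Per the submitters' processing notes, RSEM 1.2.12 and Bowtie 1.0.1 were used with build mm9. Which annotation and strand setting were used is not given in the sources used here, so reads of overlapping or antisense genes cannot be told apart. The normalized signal table that the authors also deposited has 21523 rows and holds all of the set but Kif4. It was used for an alternative only. Symbols of 25 rows had turned into dates, and these rows were left unnamed. No 2 tumors had identical counts.

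Estimated counts were rounded to whole numbers. Genes were tested with edgeR 4.0.16 in R 4.3.3, with filterByExpr, TMM factors and the robust quasi-likelihood F test, and p-values were adjusted by the Benjamini-Hochberg method over 14857 genes, with a threshold of 0.05. One fit compared p107 minus p130 tumors over all 16, and another tested the mice within each genotype. The labels call tumors biological replicates, but tumors of 1 mouse share an animal, and p-values over tumors do not allow for that. Exact two-sided permutation tests of mean log2(CPM + 1) were run over tumors and over the 35 splits of the mouse means. The tests were run on simulated counts drawn independently for each tumor, which cannot check the effect of tumors that share a mouse. Alternatives used DESeq2 1.42.0, voom with limma 3.58.1, other scalings and filters, sums per mouse, and each mouse left out.

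The members, roles and other lists were chosen with earlier results of these data known. In each role, the 2 genes of smallest genotype p and the gene of smallest p between mice are given with lowest, median and highest levels. The 3 genes of smallest genotype p among the other G2/M genes and among the regulators are also named. So are Rbl1, Rbl2, Mybl2, Foxm1 and Cdk1, and not all of these have such levels printed. Other genes were named after their values were seen.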

Additional observations from a re-analysis of the deposited data

Results flagged for a closer look

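In 88 groups of tumors, 1 for each of the 40 genes and for the levels of the 4 gene lists (the set itself, the other G2/M genes, the regulators and the G1/S genes) in each genotype, the highest and lowest values were set against the rest of the group with Dixon's test, which flags about 1 in 20 groups by chance. It marked 2. Tpx2 was at 631.8 CPM in sgp107_6627T1, and the 7 other p107 tumors ran from 187 to 326.7 CPM. Ccnb1 was at 431.6 CPM in sgp130_6637T3, the tumor with the highest level of the set, and the 7 other p130 tumors ran from 120 to 254.2 CPM.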

How the results depend on the processing

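No G2/M gene was called between genotypes under any of the 18 alternatives run, and the spread of the set level over tumors kept its size under all 3 run for it. Over all genes, edgeR called 4 between genotypes (1756 at an unadjusted p under 0.05). DESeq2 called 212, sums per mouse called 1, and voom with a random term for the mouse, limma on the normalized table and the tumors with Y-linked transcripts called 0 each, with 935, 1460 and 1037 at an unadjusted p under 0.05. Leaving out a mouse gave 0 to 10. Leaving out tumor sgp107_6631T2, chosen after seeing the data, gave 2. Of the named genes, Rbl2 was called by DESeq2 (adjusted p = 8.56e-05) and by no other. Between mice of a genotype, where edgeR called 33 genes, voom called 19, leaving out a mouse gave 6 to 146, and leaving out sgp107_6627T1 or sgp107_6631T2 gave 9 and 6. Of the 40 genes it called 0 (10 at an unadjusted p under 0.05), and 0 to 1 with a mouse left out, Cdc20 without mouse sgp130_6697. Among the tumors with Y-linked transcripts, where the p130 arm is the single mouse sgp130_6697, 4 log2 fold changes changed sign, to 0.0769 for Plk1, 0.0222 for Aurka, 0.0152 for Cenpa and 0.0295 for Anln. With a mouse left out, the range was -0.91 to 0.0937 for Cdc20, -0.30 to 0.12 for Plk1, -0.31 to 0.0898 for Aurka, -0.28 to 0.00944 for Bub1, -0.50 to 0.26 for Cenpa, -0.13 to 0.44 for Pttg1, -0.10 to 0.22 for Ttk, -0.0545 to 0.38 for Nuf2 and -0.11 to 0.21 for Mki67. None of these was past the threshold, and the cause was not tested. The median over the 40 genes ranged from -0.22 to 0.20. No paired analysis was possible because each mouse carried 1 genotype. Tumors of 1 mouse share an animal, and with counts summed per mouse, 4 of p107 and 3 of p130, none of the 40 genes was called and their median log2 fold change was -0.04. The lowest value of the 40 genes in any tumor was 23.4 CPM.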
